A study of Mus musculus with 12 samples.

Results

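Endothelial junction molecules are the adhesion proteins and scaffolds that hold the cells of the vessel lining together. The set examined held 10 genes, namely Cdh5, Pecam1, Cldn5, Esam, Jam2, Jam3, Ocln, Tjp1, Icam2 and F11r. Its members were the probe sets whose only gene symbol in the platform's probe-to-gene table was one of these names, which gave 18 of the 45101 probe sets on the array. A probe set is a group of short probes that together report 1 transcript or a group of transcripts of a gene. Levels were measured in side population cells of mouse muscle, a minor fraction of the dispersed cells that is recognised because it exports the dye Hoechst. One group came from the extraocular muscles, which move the eye (EOM, 6 preparations), and the other from tibialis anterior, a limb muscle (TA, 6 preparations). The labels describe the preparations as separated independently and hybridize each to its own array, without naming strain, age, sex or any treatment, so p-values cover the spread between these preparations. Replicates carry the numbers 0, 1, 2, 3, 5 and 6 in both groups.

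Endothelial cells are joined by adherens junctions and tight junctions that lie intermingled along the same cell border. In adherens junctions the cadherin encoded by Cdh5 binds its like on the neighbouring cell and is anchored to actin through catenins. In tight junctions claudins such as Cldn5 seal the space between cells, Ocln and the JAM family (F11r, Jam2 and Jam3) take part, and the scaffold protein of Tjp1 links them to the cytoskeleton. Pecam1, Esam and Icam2 are adhesion proteins of the immunoglobulin family at the same borders, and leukocytes use several of these molecules when they cross the vessel wall. Cdh5, Cldn5 and Esam are known chiefly from endothelium, whereas Tjp1, Ocln, F11r and Jam3 are also made by epithelial and other cells, and Pecam1, Icam2 and F11r by leukocytes or platelets.

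The values are MAS5 signals, a linear measure of brightness whose trimmed mean was the same on every array as deposited. Arrays give no counts, and the number of arrays limits the precision. The median signal lay between 31.2 and 43.4 on 9 arrays and between 63.2 and 87.2 on EOM 1, TA 3 and TA 5. The ratio of 3' to 5' signal of beta-actin, which grows as amplified RNA gets shorter, reached 165 on TA 3, 104 on EOM 1 and 100.2 on TA 5, was 68.6 on TA 2, and was at most 28.5 elsewhere. For the control gene Gapdh the same ratio was 34.5 on TA 5, 17.3 on TA 3 and 9.88 on EOM 1. It was 4.92 to 24.5 on the other 9 arrays, so that Gapdh did not set EOM 1 and TA 3 apart. Abcg2, the transporter behind the dye efflux, had signals of 100.3 to 1014.3 in EOM and 1705.1 to 3460.7 in TA. Tests were made with limma on log2(signal + 16) over 27022 probe sets, of which 13 belonged to members, and adjusted p-values are Benjamini-Hochberg values over all of them with a threshold of 0.05. Changes are EOM minus TA on this log2 scale, with the moderated standard error, and understate differences of low signals.

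Most junction genes known from endothelium fell in EOM side population cells, and no member rose. Of the 13 tested member probe sets 7 fell, 0 rose and 6 did not pass, and the 7 stand for Cdh5, Cldn5, Esam, F11r, Icam2 and Jam2 (2 probe sets). Of all probe sets tested 5.03% were lower and 3.20% higher in EOM. The same 7 were those in which every EOM array lay below every TA array, a pattern found in 3.53% of all probe sets tested. Counted by genes, each through its tested probe set with the highest mean, 6 of 10 members fell, against 6.81% of the 13067 genes tested, while 4.05% of all genes rose. The median log2 change was -2.0 over the 10 genes and -0.04 over all genes. The other 5 member probe sets lay under the level filter, so that 13 of 18 is not the whole set. Without EOM 1, 2254 of all probe sets were lower and 2132 higher, where 1359 and 866 were with all arrays (568 higher without EOM 2), while the member count stayed at 7. In RNA from a mixed cell preparation, fewer cells of a type and less RNA per cell cannot be told apart.

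**Figure D1:**
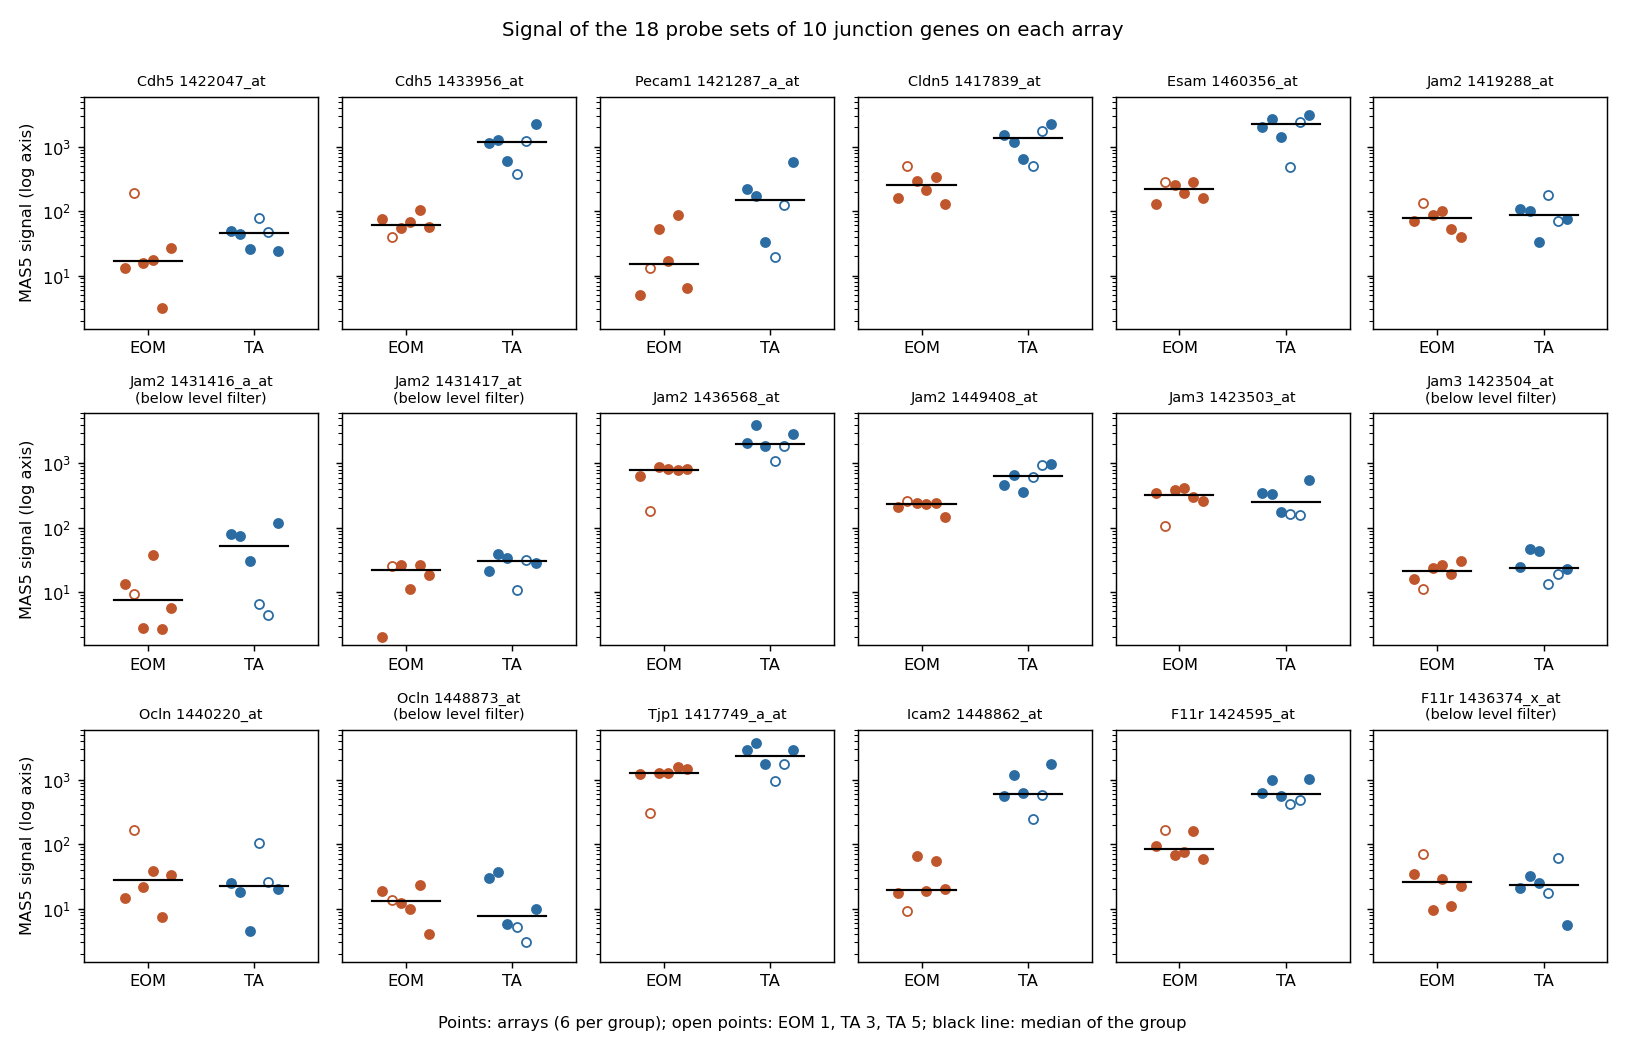
MAS5 signal (vertical log axis) of each of the 18 member probe sets on the 6 EOM and 6 TA arrays, with a black line at the group median and unfilled points for EOM 1, TA 3 and TA 5. The groups are apart without overlap in 7 panels, such as Cdh5 1433956_at (39.0 to 105.8 in EOM, 372.6 to 2272.9 in TA), and overlap in the others.

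Cdh5, the cadherin of endothelial adherens junctions, had a signal of 39.0 at the lowest, 61.8 at the median and 105.8 at the highest in EOM with probe set 1433956_at. In TA the lowest was 372.6, the median 1186 and the highest 2272.9. All 6 EOM arrays lay below all TA arrays, and TA 3 was the lowest of its group. The log2 change was -3.65 ± 0.36 (SE, n = 6 per group, limma adjusted p = 3.67e-06), or 12.6-fold on the log2(signal + 16) scale. A second probe set, 1422047_at, was low on nearly all arrays, at 3.1 to 190.6 in EOM (median 16.8) and 24.4 to 77.1 in TA (median 45.2). Its groups overlapped, with the highest value of both on EOM 1, and its change was -0.48 ± 0.48 (limma adjusted p = 0.686).

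Icam2, Esam and Pecam1, adhesion proteins of the immunoglobulin family at the endothelial border, differed in how far they changed. Icam2, a ligand for leukocyte integrins that sits at endothelial junctions, was dim on every EOM array. Its signal was 9.2 at the lowest, 19.6 at the median and 66.3 at the highest in EOM, against 248.5, 600.1 and 1752.7 in TA. All EOM values were low and the groups did not overlap, with a log2 change of -4.04 ± 0.41 (SE, limma adjusted p = 4.87e-06). The size depends on the added constant, at -3.04 with 64 and -4.73 with 1, where Cdh5 was at -3.04 and -3.94. Esam, which binds its like on the next endothelial cell, was at 128.2, 223 and 282.0 (lowest, median and highest) in EOM and at 488.1, 2256 and 3117.2 in TA. TA 3 stood below the other TA arrays, which began at 1415.4, and still above every EOM array. The log2 change of Esam was -2.99 ± 0.38 (limma adjusted p = 4.53e-05).

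Pecam1, which holds endothelial cells together and guides leukocytes between them, spread widely in TA. In EOM it had signals of 5.0, 14.9 and 87.2 (lowest, median and highest), and in TA of 19.6, 149.7 and 580.4. The groups overlapped through TA 2 (32.9) and TA 3 (19.6), which were as low as EOM arrays, and through EOM 2 (53.2) and EOM 5 (87.2). The change of -1.84 ± 0.60 (SE) did not pass (limma adjusted p = 0.0702). It passed without EOM 5 (adjusted p = 0.0437), TA 2 (0.0416) or TA 3 (0.0186), and in the fits with a covariate for 3' to 5' ratios, with array weights, and without EOM 1, TA 3 and TA 5 together.

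**Figure D2:**
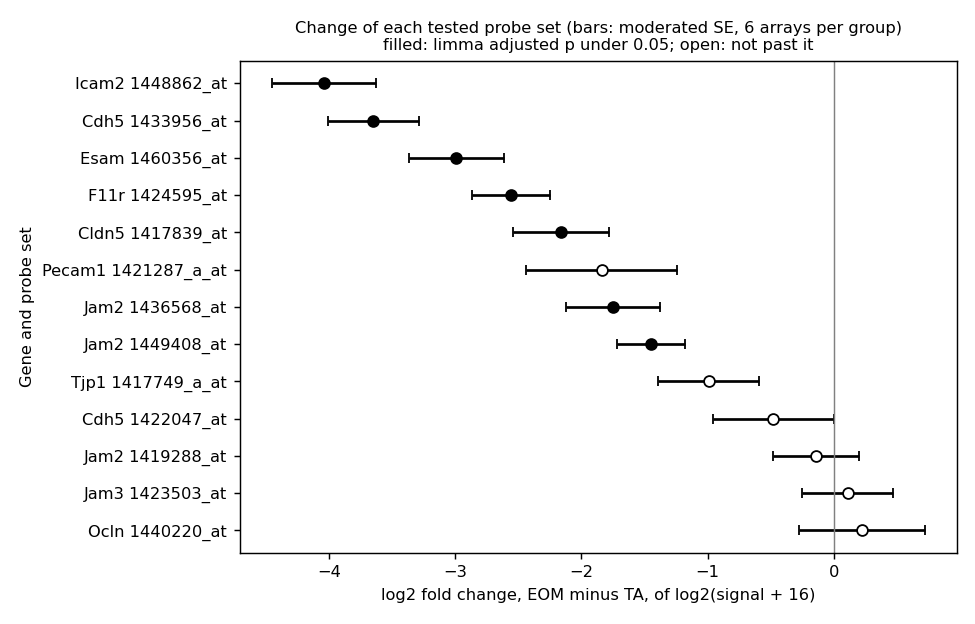
Log2 change (horizontal axis, EOM minus TA, of log2(signal + 16)) of the 13 tested member probe sets, with the moderated SE as bars; filled points are past the limma threshold and unfilled points are not. The changes run from -4.04 for Icam2 to 0.22 for Ocln, with Pecam1 unfilled between called probe sets.

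Cldn5, the main claudin of endothelial tight junctions, was at 127.5, 250.3 and 494.3 (lowest, median and highest) in EOM. In TA it was at 503.0, 1362 and 2230.9. The groups did not overlap, but the highest EOM array (EOM 1, 494.3) and the lowest TA array (TA 3, 503.0) were close. The log2 change was -2.16 ± 0.38 (SE, limma adjusted p = 0.00113).

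F11r encodes the first JAM protein, found in endothelium, epithelium, leukocytes and platelets. With probe set 1424595_at its signal was 59.9, 85.8 and 168.2 (lowest, median and highest) in EOM and 428.4, 598 and 1045.0 in TA. The lowest TA array was above the highest EOM array by more than the whole EOM range, and the log2 change was -2.56 ± 0.31 (SE, limma adjusted p = 2.50e-05). The second probe set, 1436374_x_at, was low in both groups, at 9.7 to 69.4 in EOM and 5.5 to 62.2 in TA. The suffix x marks probes that may also match other sequences, and this probe set was under the level filter. Without the filter its change was 0.05 (adjusted p = 0.984).

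Among the members that fell, promoter sequences from RefSeq (build GRCm38.p6) were at hand for Cldn5 and F11r, and they are shown with that of Tjp1, a member that did not pass, so that the stretches around the start sites can be compared. Each runs 5′ to 3′ on the gene's strand from 250 bases before the annotated start to 50 after it, and capitals mark the letters CCAAT on either strand.
Cldn5, chr16:18776597-18776896, plus strand: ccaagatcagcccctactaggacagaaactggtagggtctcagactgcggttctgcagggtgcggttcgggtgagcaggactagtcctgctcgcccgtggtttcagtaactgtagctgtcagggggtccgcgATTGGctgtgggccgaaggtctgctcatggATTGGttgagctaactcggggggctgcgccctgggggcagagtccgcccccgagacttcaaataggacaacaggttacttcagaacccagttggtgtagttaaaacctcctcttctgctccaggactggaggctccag
F11r, chr1:171437311-171437610, plus strand: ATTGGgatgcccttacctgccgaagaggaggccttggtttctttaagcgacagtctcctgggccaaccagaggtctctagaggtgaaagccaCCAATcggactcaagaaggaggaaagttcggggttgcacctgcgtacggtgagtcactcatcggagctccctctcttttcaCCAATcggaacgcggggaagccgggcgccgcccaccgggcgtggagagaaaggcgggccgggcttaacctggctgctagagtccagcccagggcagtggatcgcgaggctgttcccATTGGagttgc
Tjp1, chr7:65371195-65371494, minus strand: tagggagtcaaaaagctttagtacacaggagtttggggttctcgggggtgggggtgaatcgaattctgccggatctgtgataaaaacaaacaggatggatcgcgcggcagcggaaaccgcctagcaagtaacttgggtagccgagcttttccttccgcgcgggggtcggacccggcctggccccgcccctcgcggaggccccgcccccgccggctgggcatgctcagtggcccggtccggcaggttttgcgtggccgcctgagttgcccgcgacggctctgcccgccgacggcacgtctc
The letters CCAAT, the core of the CCAAT box, were found 2 times for Cldn5, 4 times for F11r and 0 times for Tjp1, on both strands. They occur at least once in 37.4% of the 32851 promoters of the same length, and at least 4 times in 1.06%. GGAA, the core that ETS factors bind, was found 0 times for Cldn5, 4 times for F11r and 3 times for Tjp1, and in 96.0% of all promoters. GGGCGG, the GC box, was found 1 time each for Cldn5 and F11r and 2 times for Tjp1 (35.7% of all promoters), and TATAAA in none of the 3 (13.6% of all promoters). None of these motifs contains another, and the motifs were chosen with the sequences in view. A match is a run of letters, not a measured binding site. Promoter entries covered 4 of the 10 genes, and not Cdh5, Pecam1, Esam, Jam2, Jam3 and Icam2. The fourth was Ocln, another member that did not pass. Its entries, beginning at chr13:100552669 and chr13:100552449, held CCAAT 0 times and 1 time. The E-box CANNTG, with N for any base, was found 1 time each for Cldn5 and F11r and 0 times for Tjp1. In these Ocln entries it was found 1 and 3 times (72.3% of all promoters).

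Jam2 and Jam3 encode a pair of JAM proteins that bind each other between cells. Jam2 had 5 probe sets. With 1436568_at, the brightest, it was at 183.5, 796 and 871.8 (lowest, median and highest) in EOM and at 1085.5, 1967 and 3930.4 in TA. The groups did not overlap, and EOM 1 lay far below the other 5 EOM arrays, which began at 634.4. The log2 change was -1.75 ± 0.37 (SE, limma adjusted p = 0.00533), a call that was lost when every array was shifted to a common median, at a change of -1.65 (adjusted p = 0.111).

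A further Jam2 probe set, 1449408_at, was at 149.2, 235 and 257.7 (lowest, median and highest) in EOM and at 361.2, 637 and 959.9 in TA. These groups did not overlap either, and the log2 change was -1.45 ± 0.27 (SE, limma adjusted p = 0.00182). Here EOM 1 was the highest EOM array rather than the lowest. The third tested probe set, 1419288_at, overlapped widely, at 40.3 to 134.4 in EOM and 33.5 to 177.1 in TA, with a change of -0.14 ± 0.34 (adjusted p = 0.899). The other 2 lay under the filter: 1431416_a_at was at 2.7 to 38.0 in EOM and 4.4 to 116.4 in TA, and 1431417_at at 2.0 to 26.6 and 10.7 to 39.2. In the fit without EOM 1, TA 3 and TA 5 the first of these 2 was tested and fell as well, bringing the member count there to 10.

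Jam3 did not pass, and its groups overlapped widely. Probe set 1423503_at was at 105.6, 324 and 409.8 (lowest, median and highest) in EOM and at 155.7, 254 and 556.9 in TA. EOM 1 was the lowest and TA 6 the highest of all 12 arrays, and the other TA arrays lay within the EOM range. The change was 0.11 ± 0.36 (SE, limma adjusted p = 0.930), and its sign turned to -0.18 with a covariate for 3' to 5' ratios. Probe set 1423504_at of the same gene was at 11.2 to 30.6 in EOM and 13.4 to 47.2 in TA and was not tested.

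Tjp1, the scaffold ZO-1 of many cell types, was at 301.1, 1279.5 and 1566.3 (lowest, median and highest) in EOM and at 973.1, 2309.5 and 3721.6 in TA. Apart from EOM 1 the EOM arrays lay close together, between 1242.0 and 1566.3, and all TA arrays except TA 3 were above them. The change of -0.99 ± 0.40 (SE) did not pass with all arrays (limma adjusted p = 0.153). It passed with array weights (adjusted p = 0.00206), with a covariate for 3' to 5' ratios (0.0315), and without EOM 1, TA 3 and TA 5 (0.00231). It did not pass in the other settings, among them median centring (-0.90, adjusted p = 0.493) and the fit without EOM 1 alone, where the change was -0.64 (adjusted p = 0.136).

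Ocln, a tight junction protein best known from epithelium and the vessels of the brain, was low on most arrays. With probe set 1440220_at its signal was 7.4, 27.5 and 164.2 (lowest, median and highest) in EOM and 4.5, 22.8 and 105.4 in TA. The highest values of the groups were on EOM 1 and TA 3, the arrays with the highest median signals, and all others were at 38.3 or less. Its change was 0.22 ± 0.50 (SE, limma adjusted p = 0.892). The second probe set, 1448873_at, was under the filter at 4.0 to 23.3 in EOM and 3.0 to 37.5 in TA.

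**Figure D3:**
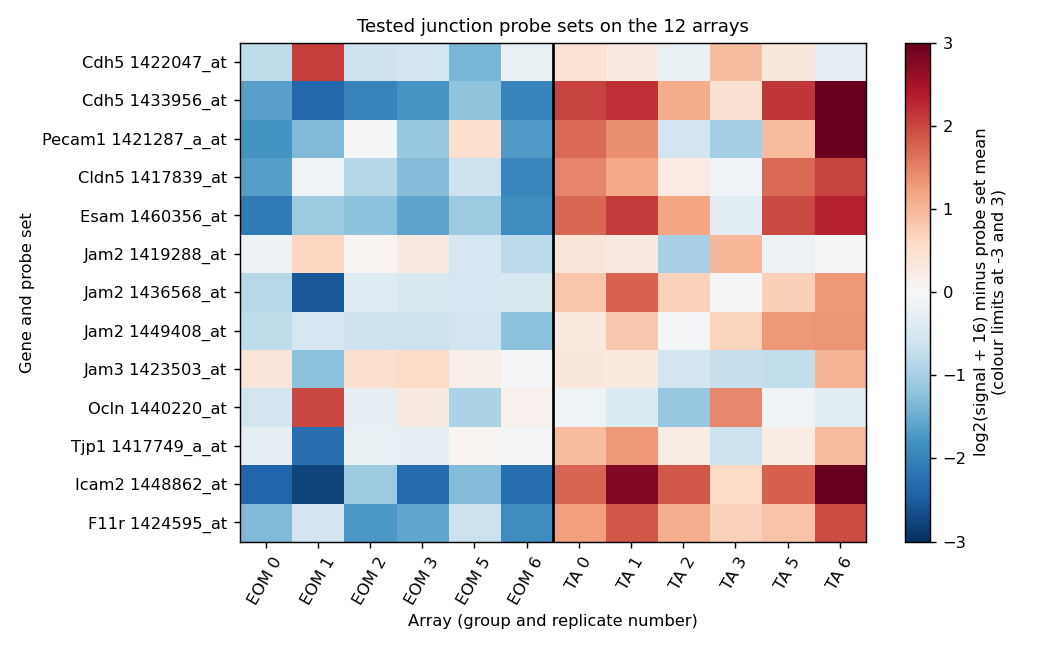
Level of the 13 tested member probe sets (rows) on the 12 arrays (columns, EOM left and TA right of the line), as log2(signal + 16) minus the probe set's mean over all arrays; colours are limited at -3 and 3. Called rows such as Cdh5 1433956_at, Esam and Icam2 are blue in EOM and red in TA, with TA 3 palest of the TA arrays in most of them.

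The members that fell did not follow the same order on every array. Within TA, TA 6 was the highest array in 6 of the 7 called probe sets and TA 3 the lowest in 6. Within EOM the lowest array was EOM 1 in 3 of them, EOM 6 in 3 and EOM 0 in 1, and the highest was EOM 1 in 3, EOM 2 in 2 and EOM 5 in 2. TA 6 had the lowest 3' to 5' beta-actin ratio (5.27) and TA 3 the highest (165). For Gapdh the ratio was again lowest on TA 6 (4.92), but it was 17.3 on TA 3 and highest on TA 5 (34.5). The part of RNA length in these values was not tested beyond the fit with a covariate for such ratios, in which 9 member probe sets were lower. In that fit 1488 of all probe sets tested were lower and 992 higher, where 1359 and 866 were without the covariate.

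Whether the members changed by unequal amounts was asked with the log2 difference between each gene and Cdh5 on the same array. The difference was compared between the groups by an exact permutation test over all assignments of the 12 arrays to the groups (two-sided, smallest possible p = 0.00216, Benjamini-Hochberg over 9 tests). A ratio of this kind shows unequal change only. Jam3 differed from Cdh5 by 3.76 (EOM minus TA, exact permutation adjusted p = 0.00487), with all EOM arrays between 1.14 and 2.51 and all TA arrays between -2.87 and -1.14. Jam3 itself changed by 0.11, so that this value mostly restates the change of Cdh5. Tjp1 moved by 2.66, Jam2 by 1.90 and Cldn5 by 1.49, each with the same adjusted p and no overlap between the groups. Each of these 4 lay higher relative to Cdh5 in EOM than in TA.

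F11r differed from Cdh5 by 1.09 (exact permutation adjusted p = 0.00835). Pecam1 gave 1.82 (exact permutation adjusted p = 0.00649, but 0.0779 with 1 in place of 16 as the added constant). Its mean in TA was 7.1 on the log2(signal + 16) scale, against 9.97 for Cdh5. The added constant thus left Pecam1 less room to fall than Cdh5, and nothing is read from its test. Ocln gave 3.87, but with its signals near the level filter in both groups this value mostly restates the change of Cdh5, and nothing is read from its test. The difference for Esam was 0.66 (exact permutation adjusted p = 0.0463) and was lost in 12 of 15 alternatives. Icam2 was the only member on the other side of Cdh5, at -0.39, and this difference did not pass (exact permutation adjusted p = 0.216). Its arrays ran from -1.44 to 0.22 in EOM and from -1.06 to 0.05 in TA. It passed without EOM 2 (-0.61, adjusted p = 0.0317).

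**Figure D4:**
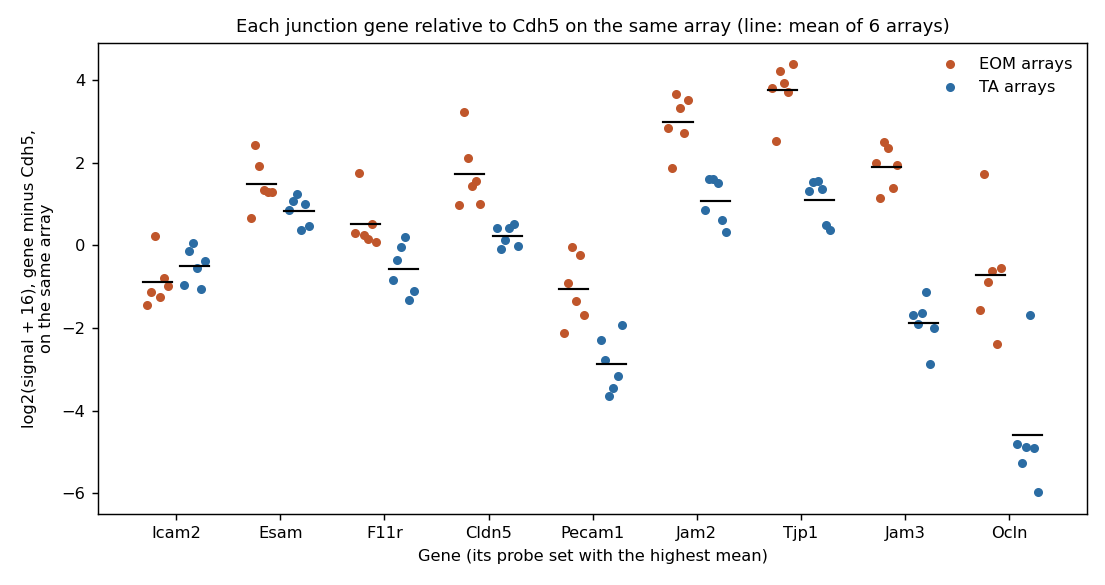
Log2(signal + 16) of each member minus that of Cdh5 on the same array (vertical axis), for EOM and TA arrays, with a line at the mean of 6; genes are ordered by the difference between the groups, and heights of different genes are not comparable. The groups lie closest for Icam2 (difference -0.39) and far apart for Jam3 (3.76). The values for Jam3 and for Ocln (3.87), a dim probe set, mostly restate the change of Cdh5.

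Probe sets of the same gene were compared in the same way, in 3 tests. The Cdh5 probe set 1422047_at gave 3.17 against 1433956_at, but it was dim on most arrays, so that this value mostly restates the change of 1433956_at and nothing is read from its test. For Jam2, 1419288_at differed from 1436568_at by 1.61 (exact permutation adjusted p = 0.0422), a call lost in 10 of 15 alternatives. The other Jam2 probe set, 1449408_at, differed from it by 0.30, which did not pass (exact permutation adjusted p = 0.610).

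The partners of these molecules were followed through 57 genes on 5 lists, where 6.81% of all genes were lower and 4.05% higher. Of 13 tested cadherin partners 6 fell, 0 rose and 7 did not pass, with a median log2 change of -0.91. Ptprb, the phosphatase VE-PTP that associates with the Cdh5 protein, had a signal of 255 ± 146 in EOM against 4117 ± 1920.5 in TA (SD of 6 arrays, log2 change -3.93 ± 0.35, SE, limma adjusted p = 9.71e-07). Afdn, the actin-binding partner of nectins, changed by -2.08 ± 0.32 (adjusted p = 0.000327), Pkp4, a member of the p120 catenin family, by -1.86 ± 0.26 (adjusted p = 0.000130) and the cadherin Cdh13 by -1.41 ± 0.24 (adjusted p = 0.000771). Of the catenins, Jup (plakoglobin) fell by 1.13 ± 0.26 on the log2 scale (adjusted p = 0.0101). The others did not pass: Ctnnb1 was at -0.18 ± 0.33 (adjusted p = 0.863), Ctnna1 at -0.63 ± 0.24 (0.129) and Ctnnd1 at -0.67 ± 0.26 (0.144). Without EOM 1, Ctnna1 (adjusted p = 0.0144) and Ctnnd1 (0.0495) passed, and 8 of the 13 were lower and 1 higher.

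Most tight junction partners did not pass. Of 15 tested 3 fell, 1 rose and 11 did not pass, with a median of 0.42. Those that fell were the scaffold Magi1 (-2.37 ± 0.30, limma adjusted p = 4.98e-05, with -0.34 at a further probe set) as well as the claudins Cldn1 (-1.58 ± 0.41, adjusted p = 0.0210) and Cldn15 (-1.47 ± 0.30, adjusted p = 0.00399). Clmp, a relative of the coxsackievirus receptor, rose from 211 ± 61.0 in TA to 486 ± 145 in EOM (SD, n = 6, 1.12 ± 0.28, adjusted p = 0.0176). Cldn12 was at 0.68 ± 0.27 (adjusted p = 0.148), and passed without EOM 1 (0.0228). Tjp3, Cgn and Marveld2 were under the filter.

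Regulators of junctions through the small GTPase Rap1 included 3 genes that fell, of 11 tested, with 0 higher, 8 not past the threshold and a median of -0.42. They were the cAMP-activated exchange factor Rapgef3 (-2.70 ± 0.36, limma adjusted p = 7.70e-05), the Rap1 effector Rasip1 (-2.21 ± 0.42, adjusted p = 0.00222) and Arhgap29 (-1.95 ± 0.23, adjusted p = 1.91e-05). A further probe set of Arhgap29 was at -0.71. Rap1a (-0.42 ± 0.48) and Rap1b (-0.08 ± 0.48) did not pass, nor did Krit1, Ccm2 and Pdcd10, the genes of cerebral cavernous malformation (-0.53 to -0.13). Without EOM 1, Ccm2 passed (-0.71, limma adjusted p = 0.0139), which made 4 lower genes.

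Of 3 tested connexins, the proteins of gap junctions, Gja4 fell from 513 ± 359.5 in TA to 51.1 ± 35.3 in EOM (SD, n = 6, -2.85 ± 0.41, limma adjusted p = 0.000138). Gja1, found in many cell types, was at 0.02 ± 0.25 (adjusted p = 0.980) and Gjc1 at 0.49 ± 0.40 (0.592). Gja5 was under the filter.

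Among 9 tested partners in leukocyte passage 3 fell, 0 rose and 6 did not pass, with a median of -0.89. The endothelial selectins led, Selp at -3.42 ± 0.32 (limma adjusted p = 1.67e-06) and Sele at -2.17 ± 0.44 (adjusted p = 0.00364), with the adhesion molecule Mcam at -2.06 ± 0.51 (adjusted p = 0.0149). Icam1 (-0.64 ± 0.28, adjusted p = 0.213) and Vcam1 (-0.04 ± 0.54, adjusted p = 0.986) did not pass.

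**Figure D5:**
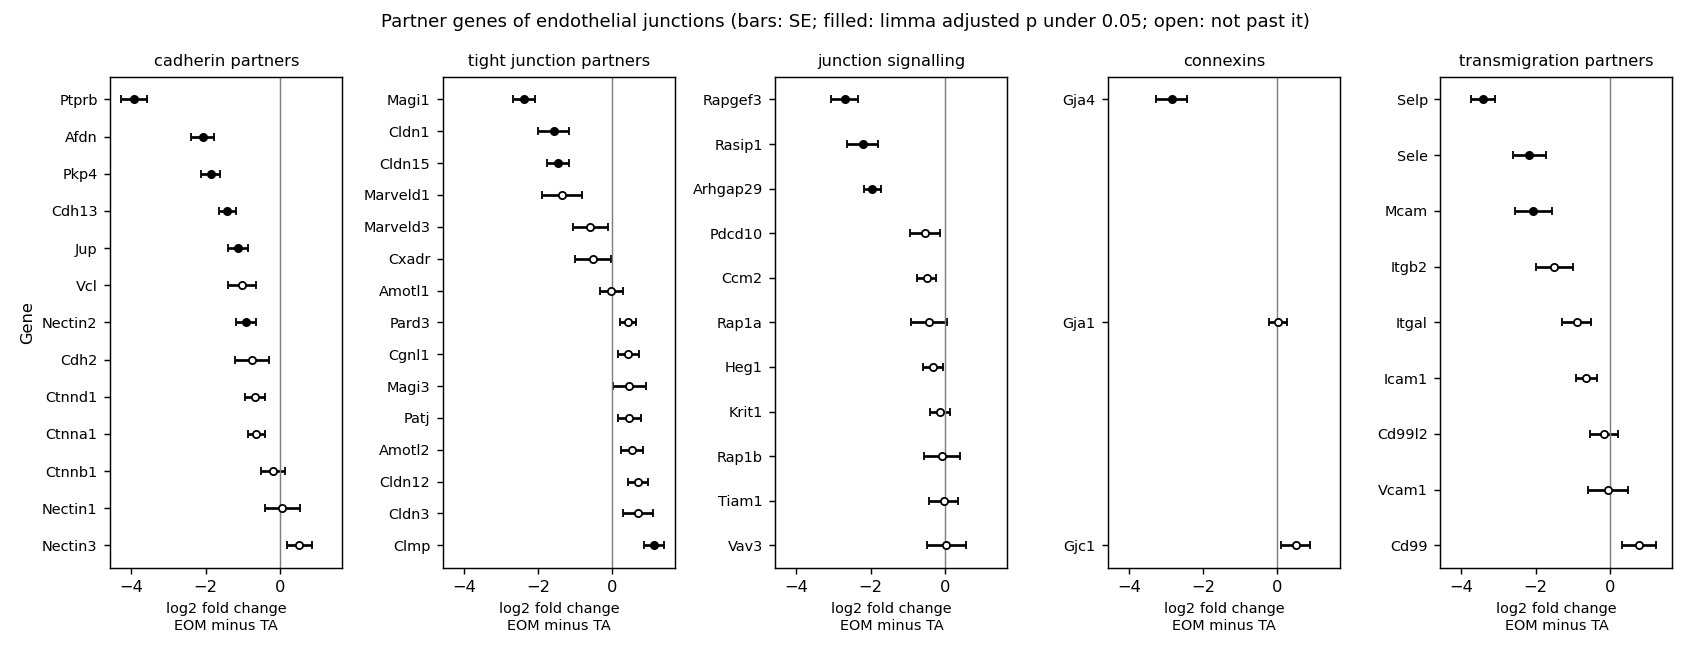
Log2 change (EOM minus TA, bars are SE) of the tested partner genes on the 5 lists; filled points are past the limma threshold. Ptprb (-3.93), Selp (-3.42) and Gja4 (-2.85) lie furthest to the left of their lists, and Clmp (1.12) is the only filled point to the right of zero.

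Markers of endothelial cells that are no members moved with the junction genes. Of 16 tested 14 fell and 0 rose, with a median of -3.56, and their summed signal was 2559.9 to 4755 in EOM and 24751 to 44082 in TA. The largest changes were in Egfl7 (-4.75), Cd93 (-4.10), Plvap (-4.04) and Vwf (-4.0). Further probe sets were at -4.81 to -1.62 for Egfl7 and at -3.60 to -0.89 for Cd93. Tek (-0.18, limma adjusted p = 0.904) and Clec14a (-1.19, adjusted p = 0.179) did not pass. Each of these markers was above the level filter, and the lowest signal anywhere in the table was 0.1, so none was listed at 0. Their part in the change of the junction genes was not tested.

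Markers of other cells that can make some of the members were summed in the same way. All 8 leukocyte markers fell, with a median of -2.34. Their summed signal was 366 to 4282 in EOM and 4775 to 12063 in TA. The largest changes were in Ctss (-3.47), Tyrobp (-2.90), Ptprc (-2.63) and Cd53 (-2.42, with -0.88 at a further probe set). Of 9 pericyte and smooth muscle markers 6 fell (summed signal 6128 to 10592 and 19938 to 33381), led by Myh11 (-4.03), Rgs5 (-3.96), Acta2 (-3.85) and Notch3 (-2.63). Pdgfrb (-0.51, limma adjusted p = 0.506), Des (-0.79, 0.415) and Abcc9 (0.94, 0.314) did not pass. None of 3 tested platelet markers passed (303 to 1159.7 in EOM, 307 to 716 in TA), with Gp9 and Ppbp under the filter. Pf4 was at -1.29 (limma adjusted p = 0.0549) and passed without EOM 1 (0.00274). None of 4 tested epithelial markers passed (148 to 576 and 199 to 471), with Krt8, Cldn4 and Cldn7 under it. Of 3 lymphatic markers 1 fell, Flt4 (-2.30, with -0.50 at a further probe set), at summed signals of 1398 to 2776 and 960.0 to 4785. Lyve1 (0.78, limma adjusted p = 0.343) and Pdpn (0.03, 0.983) did not pass, and Prox1 was under the filter. Of 7 fibroblast markers 3 rose (94729.7 to 124599 and 52135 to 83642), Pi16 (5.55), Dpt (1.90) and Pdgfra (1.18). Lum (1.54, limma adjusted p = 0.194), Dcn (0.16, 0.821), Col3a1 (0.0, 0.997) and Col1a1 (-0.84, 0.349) did not pass. Lum passed without EOM 1 (limma adjusted p = 0.00166). Of 5 tested muscle markers Acta1 fell (-1.66), at 100.4 to 543 and 315 to 1105, with Pax7, Myf5 and Myh4 under the filter. None of 4 Schwann cell markers passed (521 to 15937 and 1256 to 3080.2). The part of leukocytes, pericytes or platelets in the values of Pecam1, Icam2 and F11r was not tested.

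Across the 12 arrays the 8 genes outside the set whose levels were most like those of Cdh5 had a Pearson correlation with it of 0.973 to 0.989 on log2(signal + 16). The measure includes the difference between the groups, which all 8 share with Cdh5, and is given as a description. In order they were the chloride channel protein Clic5, the ETS factor Elk3, the VEGF co-receptor Nrp1, the GTPase regulator Arhgap31, the VEGF receptors Flt1 and Kdr, Stard8 and the caveolar protein Cavin2. Their log2 changes ran from -3.81 for Flt1 to -1.39 for Nrp1, where the signal of Nrp1 was 1500.0 ± 131 in EOM against 3989.9 ± 618 in TA (SD, n = 6, limma adjusted p = 0.000241). Clic5, at the top, was at 26.1 ± 8.23 and 561 ± 239.6 (SD, n = 6, log2 change -3.68, adjusted p = 6.55e-07).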

How the data were processed

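Per the labels' protocols, total RNA of side population cells went through 2 cycles of linear amplification before hybridization of the biotin-labelled product to Affymetrix arrays. The deposited table holds linear signal intensities made with MAS5 per the submitters' processing notes. Their mean after trimming 2% at each end was 150.0 on every array, so that scaling can lift background together with signal. Present calls and genome build are not given in the sources used here. All 12 columns were used and no 2 were identical.

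Genes were named through the platform's annotation, and 18 of 18 member probe sets kept their symbol in RefSeq (GRCm38.p6). Signals were transformed as log2(signal + 16), control features were dropped along with the 40% of features whose mean log2 value was lowest, and limma 3.58.1 (R 4.3.3) gave the test between the groups (intensity trend, two-sided, Benjamini-Hochberg). The fit was tested on simulated data, and permutation tests enumerated all assignments. Each listed gene was represented by its tested probe set with the highest mean. All member probe sets are named, up to 4 called genes from each list, others where they bear on a result, and the 8 genes most like Cdh5. The members and lists were chosen with earlier results of these data known. Alternatives were another added constant (1 or 64), median centring or quantile normalization, a filter on 60% or none, no trend, array weights, the replicate block, a covariate for 3' to 5' ratios of control genes, averaging the probe sets of a gene, and leaving out arrays.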

Additional observations from a re-analysis of the deposited data

Results flagged for a closer look

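Among 36 groups of 6 arrays (18 member probe sets in each muscle, log2 scale), 5 held an array whose gap to its nearest neighbour was large for the range of the group; chance gives about 1 in 20. EOM 1 was that array in 4 of them. It stood above the other EOM arrays for Cdh5 1422047_at, at a signal of 190.6, and below them for Jam2 1436568_at (183.5), Jam3 1423503_at (105.6) and Tjp1 1417749_a_at (301.1). EOM 6 stood below the other EOM arrays for Jam2 1449408_at, at 149.2.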

How the results depend on the processing

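The member count of 7 lower probe sets was 6 to 10 under the alternatives, and none had a higher one. All tested probe sets gave 2872 lower and 2616 higher with array weights, 890 and 555 with median centring, 2434 and 2275 without EOM 1, TA 3 and TA 5, and 1012 to 2254 lower and 568 to 2132 higher with 1 array left out. The cause was not tested. Same-numbered arrays did not deviate together (correlations of -0.317 to 0.157). Differences in quality between arrays enter these correlations, so they cannot tell whether same-numbered preparations were paired. With the replicate number as a fixed replicate block 1025 were lower and 607 higher (1205 and 750 as a random block), and 7 members were lower in both. Signs turned for Jam3 (-0.18 with a covariate for 3' to 5' ratios, -0.025 to 0.37 with 1 array left out), Jam2 1419288_at (-0.35 to 0.045 with 1 array left out), 1449408_at against 1436568_at (-0.078 to 0.48) and Icam2 against Cdh5 (0.0032 with 64 as the constant), none called with all arrays. Cadherin partners had 1 higher gene without EOM 1 (Nectin3), and tight junction partners 2 higher, as with the mean of probe sets. With all arrays Nectin3 was at 0.52 (limma adjusted p = 0.456), and its 4 further probe sets were at -0.65 to 0.82. Signals near the level filter, as for Ocln, limit what these arrays can show.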
